A study of Mus musculus with 9 samples.

Results

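The genes of MHC class I antigen presentation were examined in whole ear skin of mice carrying Staphylococcus epidermidis, with and without blockade of the checkpoint receptor CTLA-4. They were taken by name: every gene whose symbol starts with H2-K, H2-D1, H2-Q, H2-T or H2-M, other than the class II helper genes H2-DM, and B2m, Tap1, Tap2, Tapbp, Tapbpl, Nlrc5, Erap1, Calr, Canx, Pdia3, Cd1d1 and Mr1. This gave 44 of the 25124 listed genes, which lie at 41 separate loci because 3 pairs of entries cover the same or overlapping stretches of chromosome 17. All mice were C57BL/6, and the ears of both groups were swabbed with a suspension of S. epidermidis strain LM087, a skin commensal, every other day until the tissue was taken on day 8. The 5 libraries of the first group had the bacterium alone, and the 4 of the second also had a checkpoint-blocking antibody against CTLA-4, a receptor that restrains T cell activation. The labels used here give no age, antibody dose or clone, and they do not say that each library is a separate animal, so a p-value reflects only how far these libraries scatter, part of which may be technical. Skin free of the bacterium, and antibody without the bacterium, were not analysed here.

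MHC class I molecules hold short peptides from inside the cell at its surface, where CD8 T cells and natural killer cells read them. A heavy chain pairs with the light chain beta-2 microglobulin, and peptides cut by the proteasome are pumped into the endoplasmic reticulum by the TAP transporter and loaded with the help of tapasin, calreticulin and the disulfide isomerase Pdia3. In C57BL/6 mice the classical heavy chains, which present to most CD8 T cells, are H2-K1 and H2-D1. The non-classical ones of the Q, T and M regions are mostly expressed at lower levels and are less polymorphic, and several of them engage innate-like T cells or natural killer receptors. Class I genes are induced by interferons and by the transactivator NLRC5.

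Each library held between 10213773 and 13868669 reads assigned to genes, recovered from the deposited values, and listed between 19639 and 20088 genes above 0. The unit is TPM, a measure of transcript abundance, here reads per base of the gene's whole genomic span scaled to the library. Levels of different genes are therefore comparable only per base of span, introns included. The 5 keratinocyte markers Krt5, Krt14, Krt1, Krt10 and Trp63 summed to between 18879 and 26445 TPM in the 9 libraries, so markers of skin were present.

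With the antibody, 18 of the 33 class I entries that could be tested were higher and 0 were lower (limma on log2(TPM + 1), Benjamini-Hochberg adjusted p under 0.05 over all 15704 genes that reached 1 TPM in 4 or more libraries). Counting each locus once, this was 15 of 30. H2-Q10 passed the filter on low values only through the antibody libraries and so had to differ. Without it the counts were 17 of 32 entries and 14 of 29 loci. Of all genes tested, 7.16% were called higher and 4.48% lower. The calls covered both classical heavy chains, the light chain B2m, the 4 tested Q region loci other than H2-Q10, 4 of 5 T region loci, 1 of 4 M region loci and both TAP subunits. None of the 5 loading factors and chaperones, nor Erap1, Nlrc5, Cd1d1, Mr1, H2-K2 or H2-Ke6, was called. Of the 5 loading factors 2 had an unadjusted p under 0.05 (Tapbp and Calr), as had 4145 of all 15704 genes tested. limma's voom on recovered reads called Tapbp, Calr and Erap1. No class I entry was lower at an unadjusted p under 0.05 or by voom. The median log2 fold change, antibody minus bacterium alone, was 0.48 over the 30 loci, 0.47 without H2-Q10, and -0.01 over all genes tested. All antibody libraries lay above all libraries with the bacterium alone at 15 of the 30 loci, or at 14 of 29 without H2-Q10, against 8.02% of all genes. The number of entries called fell to 9 when antibody library 2 or antibody library 3 was left out, and to 11 without antibody library 4. The whole table called 1124 genes higher and 704 lower, a split that scaling shifted: quantile normalization gave 1314 and 1429, a common median 1302 and 1313, and a total without the 50 most abundant genes 1205 and 1306. The class I count was 17 higher and 0 lower under each of these scalings, and Tapbp was among the entries called.

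**Figure D1:**
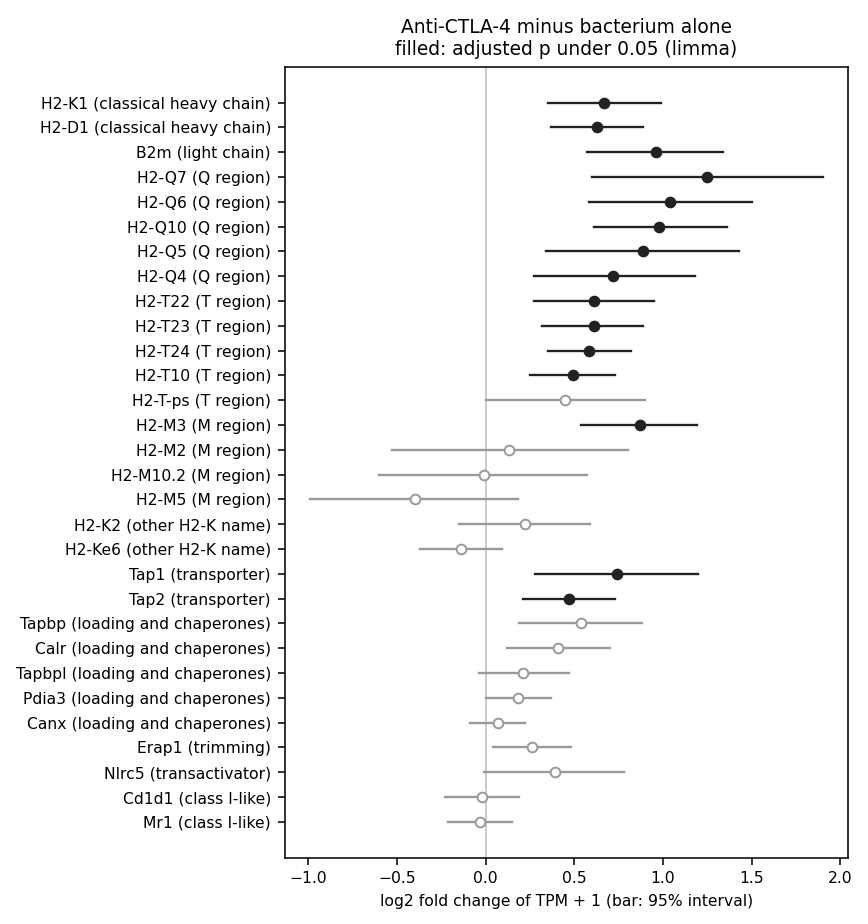
Log2 fold change of TPM + 1, antibody minus bacterium alone, with its 95% interval for each of the 30 tested loci, ordered by role; filled points have a limma adjusted p under 0.05. The 15 filled loci all lie to the right of 0, while the loading factors, Cd1d1, Mr1 and 3 of the 4 M region loci are open.

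Leukocyte transcripts moved with the same groups. The 5 general leukocyte markers (Ptprc, Coro1a, Laptm5, Cd53 and Itgb2) were all called higher and summed to between 70.2 and 99.5 TPM with the bacterium alone and between 163 and 221 TPM with the antibody. Of the T cell markers 8 of 9 were called (sums of 23.6 to 31.6 against 59.3 to 83.5 TPM), and of the monocyte and macrophage markers 8 of 9 (264 to 408 against 495 to 740 TPM). Neutrophil markers summed to 106 to 1478 against 1508 to 4458 TPM, with 3 of 5 tested members called. Most of these sums came from S100a8 and S100a9, which were not called (limma adjusted p 0.0821 and 0.115). The 4 other neutrophil markers summed to 9.45 to 21.5 against 29.8 to 37.6 TPM. Among them the called Retnlg reached 1 TPM in 1 bacterium-alone library and 4 antibody libraries, and its groups overlapped. Cd8b1, among the T cell calls, also reached 1 TPM in 1 bacterium-alone library and 4 antibody libraries. Both thus passed the filter mainly through the antibody libraries. The single tested natural killer marker, Klrk1, was called higher, while Ncr1, Klrb1c and Eomes were too low to test. Their groups overlapped, with means of 0.479 and 0.489 TPM for Ncr1, 0.320 and 0.410 TPM for Klrb1c and 0.196 and 0.312 TPM for Eomes. Klrk1 alone thus does not show a rise of natural killer transcripts. Of the dendritic and Langerhans cell, endothelial, fibroblast and muscle markers limma called 0. Of them 4 of 6, 2 of 4, 1 of 4 and 3 of 5 had an unadjusted p under 0.05, as had 4145 of all 15704 genes tested. Lower were Cd207 and Epcam of the first list and the muscle genes Ckm, Myh4 and Mylpf. Higher were Flt3, Itgax, the endothelial Pecam1 and Cdh5, and the fibroblast gene Pdgfra. Of these, Flt3 reached 1 TPM in 1 bacterium-alone library and 3 antibody libraries, so it too passed the filter mainly through the antibody libraries. Among keratinocyte markers Krt1 alone was called, and it was higher. Krt10 and Trp63 were lower at an unadjusted limma p of 0.0126 and 0.0381 but were not called. The Krt10 groups did not overlap, with means of 16685 TPM with the bacterium alone and 12599 TPM with the antibody. Among hair follicle markers Krt73 alone was called lower. None of these markers was at 0 in every library. In whole tissue, a change in the number of cells of a type and a change in RNA per cell cannot be told apart, and the part of these cell types in the class I values was not tested.

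The classical heavy chains were the most abundant heavy chains per base of span, and both rose by about the same amount. H2-K1 (mm10 chromosome 17, 33996012 to 34000333, minus strand) measured 368, 455, 391, 355 and 482 TPM in libraries 1 to 5 with the bacterium alone and 509.5, 712, 785 and 619 TPM in antibody libraries 1 to 4. The lowest antibody library lay above the highest library without it. The group means were 410 ± 56.0 and 656 ± 119 TPM (SD over 5 and 4 libraries, as throughout), a log2 fold change of 0.67 ± 0.14 (SE) with a limma adjusted p of 0.0171. H2-D1 (mm10 chromosome 17, 35263094 to 35267497, plus strand) measured 509, 612, 572, 479 and 597 TPM against 746, 979, 967 and 758 TPM. Again the groups did not overlap. Its means were 554 ± 57.3 and 862 ± 128 TPM, a log2 fold change of 0.63 ± 0.12 with an adjusted p of 0.0104. Both calls held when any 1 of the 9 libraries was left out. H2-K1 was 74.0% ± 4.50 of H2-D1 with the bacterium alone and 76.0% ± 6.58 of it with the antibody, and the groups overlapped.

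B2m, the light chain that holds class I heavy chains in shape at the cell surface (mm10 chromosome 2, 122147687 to 122153082, plus strand), also rose, with a larger fold change than either classical heavy chain, a difference that was not tested. It measured 328, 467, 441, 359.7 and 512 TPM with the bacterium alone and 599.9, 982, 890.3 and 818 TPM with the antibody. No antibody library overlapped the others. The means were 422 ± 76.1 and 822 ± 163 TPM, a log2 fold change of 0.96 ± 0.17 with a limma adjusted p of 0.00903, called whichever library was left out. Per base of span, B2m amounted to 43.5% ± 3.80 of the summed classical heavy chains with the bacterium alone, from 37.4% to 47.4%. With the antibody it amounted to 54.0% ± 5.61, from 47.8% to 59.4%. These ranges lay close together without overlapping. The share is given as a description without a test.

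**Figure D2:**
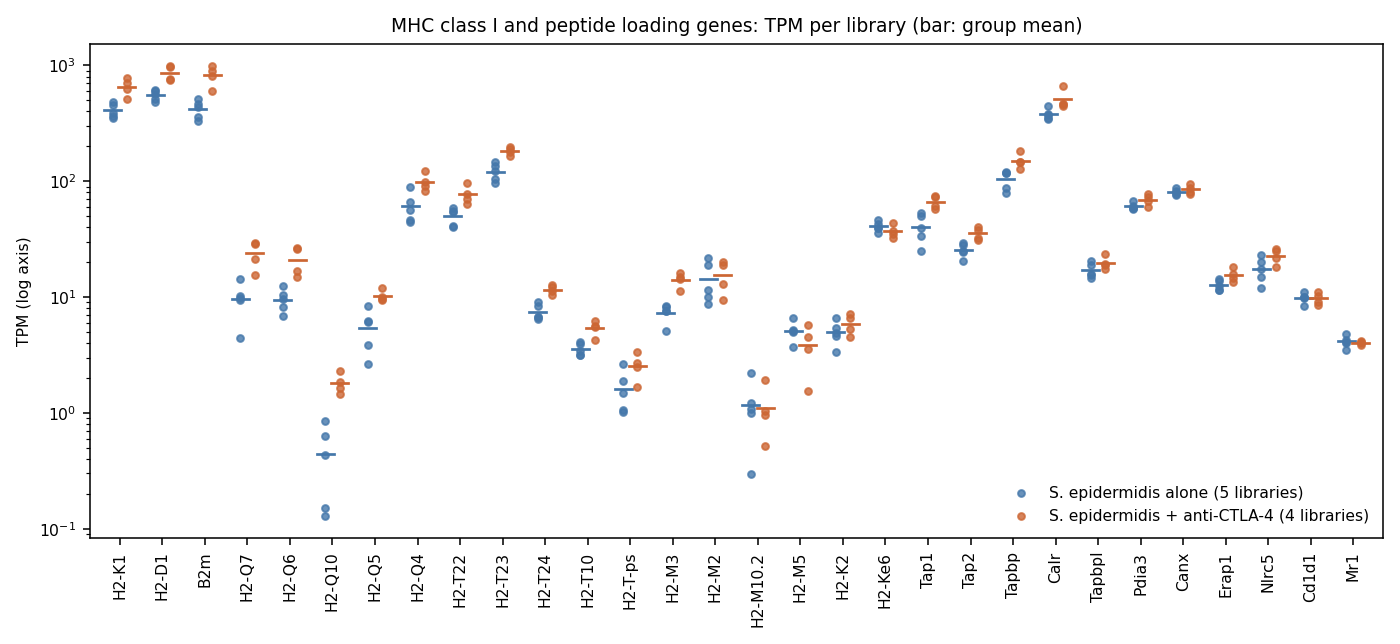
TPM of each tested class I locus in every library on a log axis, with the 5 bacterium-alone libraries and the 4 antibody libraries side by side and a bar at each group mean. H2-K1, H2-D1 and B2m stand highest among heavy and light chains, and their antibody libraries all lie above the others; Cd1d1 and Mr1 at the right overlap fully.

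A stretch of promoter is printed for 10 of the genes that were called together, since the classical and Q region genes among them share much of it. In class I promoters, an NF-kappaB element and an interferon-stimulated element are known to lie next to each other upstream of a composite X and Y box module through which NLRC5 acts. RefSeq promoter sequences (build GRCm38.p6, 250 bases before to 50 after the start site) matched 22 of the 33 tested entries. The 10 are the called heavy and light chain genes whose promoter holds an interferon-type motif. Each stretch is 118 bases, 5′ to 3′ on the gene's strand and wholly upstream of the start site. Capitals mark matches on either strand to GGGATTCCC (a kappaB core), TTTCACTTC (an interferon-type core), GAAANNGAA (a spaced interferon-type motif), TGACG (an X2 half-site) and CCAAT (a Y box), and the last match in B2m is cut by the end of the stretch.
H2-K1: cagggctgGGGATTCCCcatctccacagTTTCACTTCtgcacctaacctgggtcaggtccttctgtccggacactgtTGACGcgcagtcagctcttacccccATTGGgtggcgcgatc
H2-D1: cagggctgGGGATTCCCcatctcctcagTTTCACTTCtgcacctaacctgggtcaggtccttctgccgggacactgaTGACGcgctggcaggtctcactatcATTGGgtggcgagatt
H2-Q4: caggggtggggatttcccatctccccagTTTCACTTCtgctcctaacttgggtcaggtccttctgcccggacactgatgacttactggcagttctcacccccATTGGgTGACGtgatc
H2-Q6: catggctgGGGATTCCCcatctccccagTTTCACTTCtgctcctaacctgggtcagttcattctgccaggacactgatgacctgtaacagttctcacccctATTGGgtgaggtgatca
H2-Q7: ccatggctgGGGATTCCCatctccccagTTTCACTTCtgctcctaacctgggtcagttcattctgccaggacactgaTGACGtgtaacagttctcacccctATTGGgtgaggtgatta
H2-Q10: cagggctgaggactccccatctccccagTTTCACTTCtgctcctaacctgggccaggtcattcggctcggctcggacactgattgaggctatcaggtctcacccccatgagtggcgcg
H2-M3: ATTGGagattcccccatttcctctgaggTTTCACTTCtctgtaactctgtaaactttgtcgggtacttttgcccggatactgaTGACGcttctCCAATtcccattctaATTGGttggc
H2-T23: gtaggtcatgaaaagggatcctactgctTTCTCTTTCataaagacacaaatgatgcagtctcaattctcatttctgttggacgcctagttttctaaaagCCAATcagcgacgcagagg
H2-T22: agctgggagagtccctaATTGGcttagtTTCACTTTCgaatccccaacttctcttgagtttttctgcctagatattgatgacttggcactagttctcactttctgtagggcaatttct
B2m: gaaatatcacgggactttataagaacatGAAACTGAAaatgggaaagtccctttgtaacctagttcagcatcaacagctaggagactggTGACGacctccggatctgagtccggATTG

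The stretches lie at chr17:34000348-34000465 (minus strand) for H2-K1, whose more upstream RefSeq start site was used, chr17:35262916-35263033 (plus strand) for H2-D1, chr17:35379436-35379553 (plus strand) for H2-Q4, chr17:35424670-35424787 (plus strand) for H2-Q6 and chr17:35439014-35439131 (plus strand) for H2-Q7. The others are chr17:35469906-35470023 (plus strand) for H2-Q10, chr17:37270105-37270222 (plus strand) for H2-M3, chr17:36032735-36032852 (minus strand) for H2-T23, chr17:36042843-36042960 (minus strand) for H2-T22 and chr2:122147520-122147637 (plus strand) for B2m. Read without gaps, 89.0% of the bases of H2-D1 and 86.4% of those of H2-Q4 were identical to H2-K1, against 69.5% for H2-Q6, 64.4% for H2-Q7 and 58.5% for H2-Q10. The stretch of H2-M3, placed by the same interferon-type core, was identical to H2-K1 at 33.9% of bases. The stretches of H2-T23, B2m and H2-T22 were placed by the spaced motif instead, and gave 29.7%, 25.4% and 24.6%. A shift of a few bases lowers such a value, so those of H2-T23, B2m and H2-T22 do not measure how alike the promoters are. The kappaB core occurred in 0.353% of all 32851 promoters and the interferon-type core in 0.505%. Only 4 of the 27025 genes with a promoter held both, or 0.0148%, and these were H2-K1, H2-D1, H2-Q6 and H2-Q7. Both searched strings occur letter for letter in the H2-K1 stretch, which H2-D1, H2-Q6 and H2-Q7 share in large part. That these genes hold both therefore follows in part from the choice of strings. In the line for H2-Q4 the kappaB position is in small letters, since it differs from the motif searched.

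Among the 22 tested entries with a promoter, 11 were called higher and 11 were not. The interferon-type core was found in 7 of the 11 called genes (H2-K1, H2-D1, H2-Q4, H2-Q6, H2-Q7, H2-Q10 and H2-M3) and in 0 of the 11 others. Without H2-Q10, whose call the filter fixed, this was 6 of 10. The spaced interferon-type motif, which 8.56% of all promoters hold, was found in B2m, H2-T22 and H2-T23 and, among genes not called, in Erap1. The X2 half-site, held by 20.8% of promoters, stood in 8 called and 3 uncalled genes, and the Y box, held by 37.4%, in 10 and 8. No pair of matches to different motifs shared bases, among 86 pairs. Heavy chain genes descend from common ancestors, so their promoters are not independent, and a match is a run of letters and not evidence of binding. Since both cores occur letter for letter in H2-K1, their split between called and uncalled genes is no test of a link. Tap1, which was called, held neither interferon-type motif in this window, which says nothing of the factors that act on it.

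**Figure D3:**
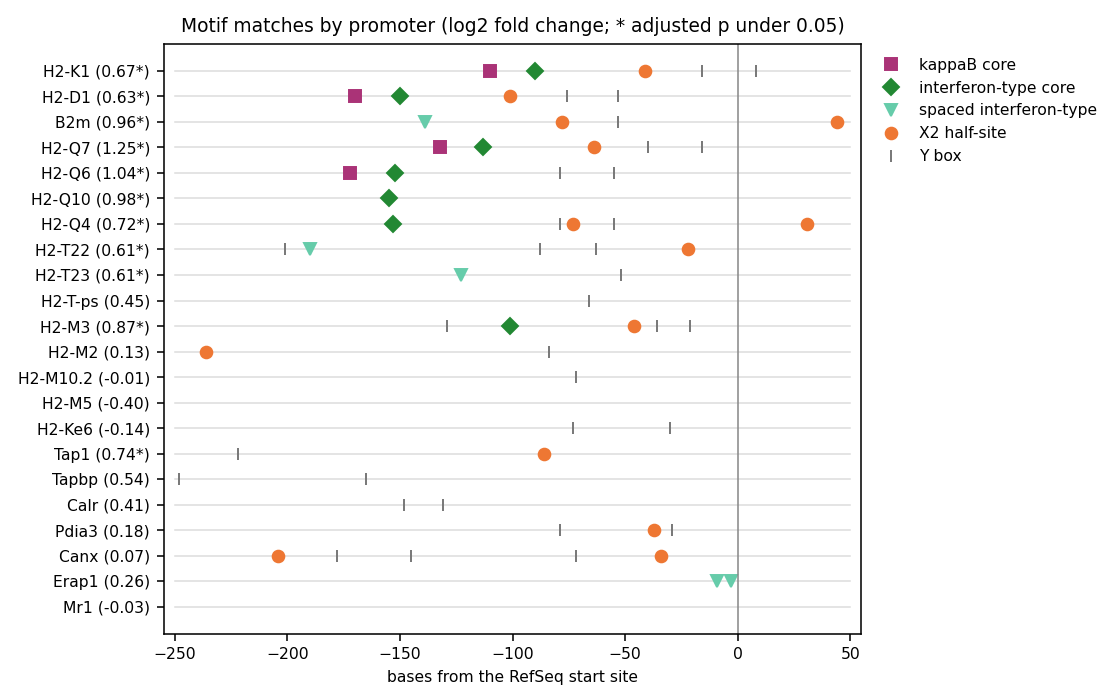
Positions of the 5 motifs in bases from the RefSeq start site (0) for the 22 tested genes with a promoter, each labelled with its log2 fold change and an asterisk where called. Squares for the kappaB core appear in called genes of the classical and Q groups, and diamonds for the interferon-type core in called genes of the classical, Q and M groups. In the 4 genes that hold both, the Y boxes lie nearer to the start site.

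The Q region gave some of the largest fold changes. H2-Q7, which encodes the Qa-2 antigen, measured 9.88, 10.3, 9.40, 4.41 and 14.4 TPM with the bacterium alone and 15.6, 28.8, 29.4 and 21.5 TPM with the antibody. Its groups did not overlap, although bacterium-alone library 5 came close to antibody library 1. The means were 9.67 ± 3.54 and 23.8 ± 6.55 TPM, a log2 fold change of 1.25 ± 0.29 with a limma adjusted p of 0.0240, and the call ended without antibody library 2 or antibody library 3 (highest adjusted p of 0.0630). H2-Q6 measured 8.26, 10.4, 9.55, 6.91 and 12.5 TPM against 14.8, 25.9, 26.3 and 16.7 TPM. Every antibody library was above every library without it. Its log2 fold change was 1.04 ± 0.20 with an adjusted p of 0.0127, and the call held whichever library was left out. The H2-Q9 entry covers the span of H2-Q7, and its values differed by 0.316% to 0.892%, so the pair is one measurement. The H2-Q8 entry, with a log2 fold change of 1.18 ± 0.17, lies 99.9% inside H2-Q6 and is not a separate measurement either.

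H2-Q4 encodes the Qb-1 molecule and was the most abundant Q gene per base of span. It measured 46.7, 56.4, 66.8, 44.3 and 89.2 TPM with the bacterium alone and 82.0, 98.9, 121 and 91.5 TPM with the antibody. Here the groups overlapped, as bacterium-alone library 5 lay above antibody library 1. The means were 60.7 ± 18.3 and 98.5 ± 16.8 TPM, a log2 fold change of 0.72 ± 0.20 with a limma adjusted p of 0.0485. H2-Q5, listed as a pseudogene, averaged 5.40 ± 2.20 and 10.3 ± 1.22 TPM (log2 fold change 0.89 ± 0.24, adjusted p 0.0445). The H2-Q4 and H2-Q5 calls ended when any library but bacterium-alone library 5 was left out, with adjusted p up to 0.111 and 0.105. Under 12 other settings of the analysis H2-Q4 was called in 5 and H2-Q5 in 6, with adjusted p up to 0.0762 and 0.0728. H2-Q10, known as a secreted class I molecule made by the liver, was near the detection limit. It rested on 1 to 6 reads per library with the bacterium alone and on 10 to 15 under the antibody, or 0.439 ± 0.308 and 1.81 ± 0.359 TPM. Its call (adjusted p 0.00685) was fixed by the filter and supports nothing. Of the 7 Q loci, H2-Q1 and H2-Q2 were not tested.

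The 4 called T region loci had log2 fold changes between 0.49 and 0.61. H2-T23 encodes Qa-1, the ligand of the CD94/NKG2 receptors. It measured 95.7, 122, 147, 104 and 136 TPM with the bacterium alone and 164, 199, 188 and 179 TPM with the antibody. The groups did not overlap, and the antibody libraries were tightly spaced. Its means were 121 ± 21.3 and 182 ± 14.9 TPM, a log2 fold change of 0.61 ± 0.13 with a limma adjusted p of 0.0169, called whichever library was left out. H2-T22, a ligand of some gamma-delta T cells, averaged 50.2 ± 8.72 and 76.9 ± 13.9 TPM without overlap (log2 fold change 0.61 ± 0.15, adjusted p 0.0321). This call ended without bacterium-alone library 1, 2 or 4 or antibody library 2, 3 or 4 (highest adjusted p 0.0760). The H2-T9 entry covers the span of H2-T22 and repeats its values within 1.75%.

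H2-T24 rose from 7.46 ± 1.17 to 11.6 ± 0.981 TPM, with groups that did not overlap (log2 fold change 0.58 ± 0.10, limma adjusted p 0.00903, called whichever library was left out). H2-T10, whose product also binds gamma-delta T cells, rose from 3.55 ± 0.436 to 5.42 ± 0.819 TPM (0.49 ± 0.11, adjusted p 0.0188). Its call ended without antibody library 1 or antibody library 2, with a highest adjusted p of 0.0508. H2-T-ps was at 1.62 ± 0.668 and 2.55 ± 0.701 TPM, overlapped and was not called (adjusted p 0.186). H2-T3, the thymus leukemia antigen, had at most 0.149 TPM in any library and was not tested.

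In the M region only H2-M3 was called. H2-M3 presents peptides that start with N-formyl methionine, as bacterial proteins do. It measured 5.06, 7.65, 8.44, 7.51 and 8.13 TPM with the bacterium alone and 11.2, 15.0, 16.2 and 14.3 TPM with the antibody. The groups were well apart, and bacterium-alone library 1 was the lowest of all. The means were 7.36 ± 1.34 and 14.2 ± 2.11 TPM, a log2 fold change of 0.87 ± 0.14 with a limma adjusted p of 0.00654, and the call held whichever library was left out. H2-M2 averaged 14.2 ± 5.73 and 15.4 ± 5.02 TPM (adjusted p 0.817), with a wide spread in both groups and a 95% interval of -0.53 to 0.80 for the log2 fold change. H2-M5 was at 5.10 ± 1.02 and 3.84 ± 1.79 TPM (adjusted p 0.363), and H2-M10.2 at 1.16 ± 0.692 and 1.11 ± 0.598 TPM (adjusted p 0.979). All 3 overlapped between groups. The other 8 M genes (H2-M1, H2-M9, H2-M10.1, H2-M10.3, H2-M10.4, H2-M10.5, H2-M10.6 and H2-M11) were not tested. The M10 family is known for its expression in vomeronasal neurons.

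In all, 11 entries did not pass the filter, and the highest value among them was 1.045 TPM, for H2-M9 in 1 library. Of these, 5 M entries were at 0 in every library. A count of 0 allows up to 3 reads, which is 0.484 to 1.01 TPM for these spans and libraries and covers counting error only. Neighbouring class I genes share sequence, and the handling of reads that fit several genes is not given in the labels or processing notes. In GENCODE M21, the share of 75-base transcript windows found in another gene was 3.1% for H2-K1, 5.4% for H2-D1, 7.0% for H2-Q4 and 5.9% for H2-T23. It was 17.9% for H2-Q6, 17.0% for H2-Q7, 21.2% for H2-Q5, 12.5% for H2-Q10, 18.5% for H2-T22 and 16.0% for H2-T10, so the division of reads among these genes is uncertain. B2m, H2-M3, Tap1, Tap2, Calr and Nlrc5 had 0.0%. The entry H2-L, outside the rule, lies inside the span of H2-D1.

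The summed levels of classical and of non-classical heavy chains were both higher in the antibody libraries. Summed over H2-K1 and H2-D1, classical heavy chains were at 877, 1068, 963, 834 and 1079 TPM with the bacterium alone and 1255, 1691, 1752 and 1377 TPM with the antibody. The 14 tested non-classical loci, each counted once, summed to 251, 296, 343, 238 and 357 TPM against 398, 487, 533 and 457 TPM. Neither sum overlapped between groups. The ratio of the group means was 1.58 for both, with classical means of 964 ± 110 and 1519 ± 240 TPM and non-classical means of 297 ± 53.3 and 469 ± 56.5 TPM. Non-classical transcripts amounted to 30.7% ± 3.46 of the classical ones with the bacterium alone and to 31.0% ± 1.87 with the antibody. The antibody libraries, at 28.8% to 33.2%, lay wholly within the range of the others, 27.7% to 35.6%. The difference in this share was 0.31 percentage points, and it lay between -0.44 and 1.54 when single libraries were left out. No test was made on these sums, and they do not show that the 2 classes changed alike.

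Within the non-classical sum, the regions differed in their ratios of means. The Q region averaged 85.7 ± 25.6 and 155 ± 28.5 TPM (ratio 1.81), the T region 183 ± 31.0 and 279 ± 24.4 TPM (1.52) and the M region 27.8 ± 5.38 and 34.5 ± 6.50 TPM (1.24). The T sums did not overlap between groups, while the Q and M sums did. Relative to the classical chains, the Q region was at 8.78% ± 1.83 and 10.2% ± 0.396, the T region at 19.0% ± 2.22 and 18.5% ± 1.55 and the M region at 2.93% ± 0.741 and 2.29% ± 0.441. All 3 of these shares overlapped between groups. H2-T23, H2-Q4 and H2-T22 made up most of the non-classical total, so the sum says little of the rarer genes.

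**Figure D4:**
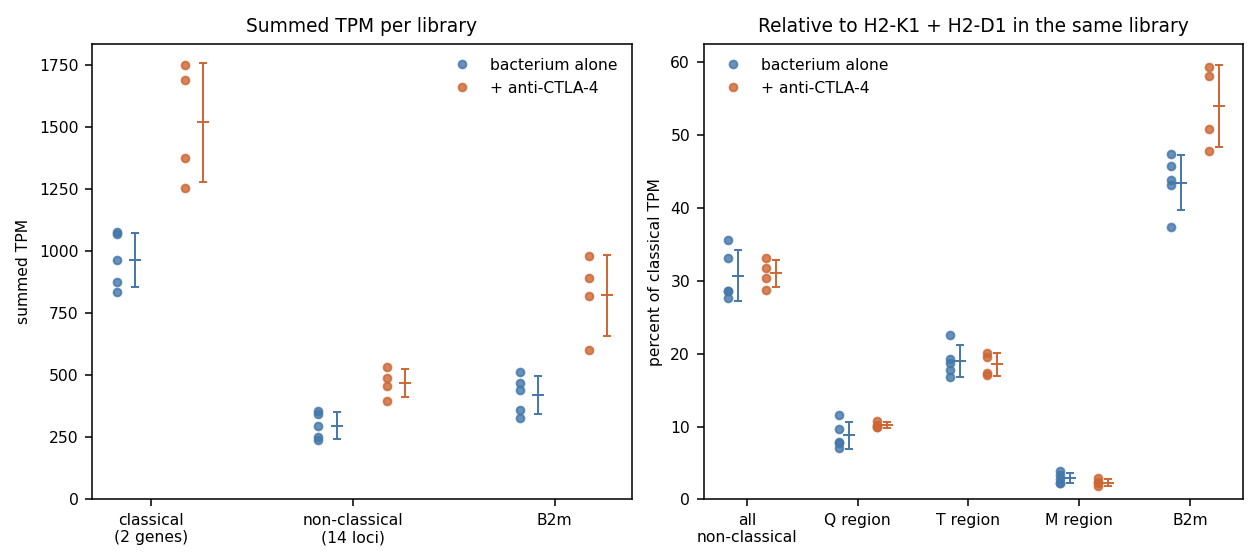
Left, summed TPM of the 2 classical genes, the 14 non-classical loci and B2m in each library; right, non-classical, Q, T and M region sums and B2m as a percent of the classical sum in the same library. Points are libraries and bars are mean ± SD (n = 5 and n = 4); the non-classical share overlaps between groups at about 31.0%, whereas the B2m share does not, at 37.4% to 47.4% against 47.8% to 59.4%.

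Both TAP transporter genes rose, with calls that depended on single libraries. Tap1 (mm10 chromosome 17, 34187556 to 34197225, plus strand) measured 34.0, 39.8, 50.2, 25.1 and 53.1 TPM with the bacterium alone and 60.9, 57.3, 72.9 and 74.4 TPM with the antibody. The groups did not overlap. The means were 40.4 ± 11.5 and 66.4 ± 8.57 TPM, a log2 fold change of 0.74 ± 0.20 with a limma adjusted p of 0.0454. Tap2, its partner subunit, measured 24.8, 24.3, 29.4, 20.4 and 28.0 TPM against 31.3, 32.4, 40.0 and 38.2 TPM, also without overlap. Its log2 fold change was 0.47 ± 0.11 with an adjusted p of 0.0292. The Tap1 call stood only without bacterium-alone library 3 or bacterium-alone library 5 (highest adjusted p 0.112), and the gene was called under 8 of 12 other settings. The Tap2 call ended without bacterium-alone library 1 or 2 or antibody library 3 or 4 (highest 0.0785). Per base of span, the Tap1 level was 157% ± 26.7 of that of Tap2 in the first group and 187% ± 8.82 in the second, with overlap.

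Tapasin (Tapbp), which holds empty class I molecules at the transporter, lay just outside the threshold. It measured 78.8, 117, 118, 87.4 and 119.7 TPM with the bacterium alone and 128, 147, 183 and 146 TPM with the antibody. The groups did not overlap, but the log2 fold change of 0.54 ± 0.15 had a limma adjusted p of 0.0513, and the gene was not called whichever library was left out. Calreticulin (Calr), a glycoprotein chaperone, measured 371, 378, 446, 342 and 350.3 TPM against 465, 442, 466 and 659 TPM. One library of the bacterium alone lay inside the range of the others, and the log2 fold change of 0.41 ± 0.13 had an adjusted p of 0.0699, called only when bacterium-alone library 3 was left out (0.0475). Of the remaining loading genes, Tapbpl, a tapasin-related peptide editor, had a log2 fold change of 0.21 (95% interval -0.04 to 0.47, adjusted p 0.275). Pdia3 was at 60.7 ± 3.96 and 69.3 ± 7.42 TPM (adjusted p 0.190), and the chaperone Canx at 80.7 ± 3.95 and 84.9 ± 7.49 TPM (adjusted p 0.583).

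Erap1, which trims peptides in the endoplasmic reticulum, was at 12.8 ± 1.37 and 15.5 ± 1.94 TPM, a log2 fold change of 0.26 (95% interval 0.04 to 0.48) with a limma adjusted p of 0.121. Nlrc5, the class I transactivator, measured 17.3, 14.8, 20.1, 12.0 and 22.9 TPM with the bacterium alone and 21.7, 18.2, 25.1 and 26.0 TPM with the antibody. The groups overlapped, with 3 libraries of the bacterium alone below all antibody libraries. Its log2 fold change of 0.39 ± 0.18 had an adjusted p of 0.199 and a 95% interval of -0.01 to 0.78, which holds no change as well as changes as large as those of H2-K1. The lipid-presenting Cd1d1 was at 9.88 ± 0.938 and 9.72 ± 1.21 TPM (adjusted p 0.906), and Mr1, which presents bacterial vitamin B metabolites, at 4.14 ± 0.487 and 4.02 ± 0.140 TPM (adjusted p 0.851). Their 95% intervals were narrow, -0.23 to 0.19 and -0.21 to 0.15. The 2 other genes named H2-K are no functional class I heavy chains: H2-K2 is a pseudogene (adjusted p 0.454) and H2-Ke6 a hydroxysteroid dehydrogenase (adjusted p 0.438).

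Genes that act before and beside class I loading were read from lists of other pathway genes. The 3 immunoproteasome subunits, which replace constitutive subunits and favour class I ligands, all rose: Psmb8 from 62.6 ± 23.6 to 143 ± 20.0 TPM (log2 fold change 1.25 ± 0.27, limma adjusted p 0.0181), Psmb10 from 34.2 ± 12.4 to 69.1 ± 9.89 TPM and Psmb9 from 15.6 ± 5.24 to 28.9 ± 4.41 TPM. The proteasome activator subunit Psme1 also rose, by 0.59 on the log2 scale, which made 4 of 5 genes of that list, while Psme2 had an adjusted p of 0.127. Their constitutive counterparts Psmb5, Psmb6 and Psmb7 gave 0 of 3, with 1 at an unadjusted p under 0.05. Of 15 other genes listed for class I folding and export, among them the mainly cytosolic peptidases Ide, Nrd1 and Tpp2, 3 were called higher. These were Sec61b, P4hb and Tmed10, with log2 fold changes of 0.46, 0.28 and 0.23. The Psmb8 call held whichever library was left out. The calls of Psmb9, Psmb10, Psme1, Sec61b, P4hb and Tmed10 each ended in some of those fits, among them those without bacterium-alone library 1 or antibody library 3 or 4.

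Of 17 transactivator partners and interferon regulators, 5 were called higher: Ciita, the class II transactivator, from 10.3 ± 1.80 to 17.2 ± 2.83 TPM, and the interferon regulatory factors Irf2, Irf7, Irf8 and Irf9. Irf7 had the largest log2 fold change of the 5, 0.96 ± 0.19 (limma adjusted p 0.0130). Irf1 at 41.0 ± 18.2 and 62.8 ± 20.5 TPM (adjusted p 0.255) and Stat2 (0.0513) were not called, nor were Rfx5, Rfxap and Rfxank, whose products bind the X box. Of 4 interferon receptor genes 3 were called, Ifnar2, Ifngr1 and Ifnar1, with log2 fold changes of 0.62, 0.44 and 0.33. Of these, the Ifngr1 call ended without antibody library 1, 3 or 4, and the Ifnar1 call stood only without bacterium-alone library 3.

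Of 12 other class I-like genes 9 were tested and 4 were called higher. These were the iron regulator Hfe (log2 fold change 0.47), the neonatal Fc receptor Fcgrt (0.39) and the NKG2D ligands H60b (0.69) and Ulbp1 (0.68). The Fcgrt call ended without bacterium-alone library 1 or 4 or antibody library 1, 2 or 3. Of 14 genes listed as receptors for class I molecules 8 were tested and 6 were called. Of these, Klrc2 passed the filter only through the antibody libraries and so had to differ, and Lilrb4a, a myeloid inhibitory receptor, is not known to bind class I. Without both, 4 of 6 were called. The CD8 chains had larger log2 fold changes than any heavy chain. Cd8a rose by 2.16 on the log2 scale, and Cd8b1, which reached 1 TPM in 1 of the 5 bacterium-alone libraries, was at 0.541 ± 0.366 and 4.38 ± 1.14 TPM. The inhibitory receptor Pirb of myeloid cells rose from 19.9 ± 5.24 to 46.8 ± 2.97 TPM. Klrc1, whose product on natural killer and T cells binds Qa-1, rose from a low 0.902 ± 0.472 to 3.36 ± 0.990 TPM. These receptors are made by leukocytes, whose general markers also rose, with sums of 70.2 to 99.5 TPM against 163 to 221 TPM. A link between the receptor values and these sums was not tested.

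MHC class II genes present to CD4 T cells. Of 10 listed, 7 were tested and 6 were called higher, and H2-DMb2 was not (adjusted p 0.739). H2-Aa had a log2 fold change of 0.65 ± 0.11 (limma adjusted p 0.00709), and H2-Ab1, Cd74 and H2-Eb1 had 0.65, 0.65 and 0.69. H2-K1 and H2-D1 stood at 0.67 and 0.63 on the same scale. Whether the 2 classes differ was not tested.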

How the data were processed

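RNA sequencing of whole ear skin gave 9 libraries, 5 with the bacterium and 4 with the bacterium and anti-CTLA-4, grouped by their titles. Per the labels' protocols, libraries were made from 500 ng of RNA with a Tecan kit and sequenced for 75 cycles. The deposited table holds TPM made by the authors. The submitters' processing notes name STAR, HOMER, DESeq2 and the build mm10, without saying how reads were counted or with which annotation. In 99.2% of rows the listed length is the genomic span. TPM times that length came in whole multiples of 1 value per library (97.3% to 98.2% of genes under 300 reads, within 0.1 read), which gave the reads per gene.

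Groups were compared with limma 3.58.1 in R 4.3.3 on log2(TPM + 1), with a trended variance and no covariate, two-sided, on genes that reached 1 TPM in 4 or more libraries, adjusted by Benjamini-Hochberg over 15704 genes. The pseudocount of 1 makes fold changes of low genes too small. The procedure was tested on simulated data. Members and gene lists were chosen with earlier results of these data known. All members are accounted for, and of each other list the called genes, or the 4 with the smallest p where over 4 were called, are named; a few others were named after their values were seen. Sums of heavy chains count entries at 1 locus once. Alternatives were other pseudocounts (0.1 and 0.5), filters, scalings and variance settings, the replicate number as a block, a threshold of 0.1 and leaving out each library. limma's voom on recovered reads and other ways to sum the non-classical genes were added after the data were seen. Within-group library pairs differed by more than counting noise.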

Additional observations from a re-analysis of the deposited data

Results flagged for a closer look

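Of 74 groups of member values checked for a single library far from the rest, 2 were flagged. By chance alone the rule flags about 1 in 20 groups, so 2 of 74 is no more than chance gives. The groups are not independent, since entries that share a locus were checked separately. H2-M3 was lowest in bacterium-alone library 1, at 5.06 TPM against 7.51 to 8.44 TPM in the other 4 libraries of that group, and its call held without that library. Calr was highest in antibody library 4, at 659 TPM against 442 to 466 TPM in the other 3, and it was not called with or without that library.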

How the results depend on the processing

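Of the 18 class I entries called, H2-K1, H2-D1, B2m, H2-Q6, H2-Q8, H2-T23, H2-T24 and H2-M3 kept their call in every fit without 1 library and 9 lost it in some, as did 9 of the 26 called genes of other lists whose fits were followed. H2-Q10 was tested in 5 of the 9 fits, only those that kept all antibody libraries, so its calls say nothing of stability. The number of class I entries called higher ranged from 9 to 18 in these fits, and the number called lower was 0 in all. Over all genes these fits called 706 to 1094 higher and 337 to 703 lower, with more than a 1.5-fold drop of the lower calls without bacterium-alone library 1, 2 or 4 or antibody library 1, 2 or 4, and of the higher calls without antibody library 3. Other settings gave 13 class I entries (no filter) to 21 (voom). Genes called lower were 1306 when the total left out the 50 most abundant genes, 1313 with a common median, 1429 with quantile normalization, 1260 at a threshold of 0.1 and 1137 with voom. Genes called higher were 1844 with voom. The causes were not tested. Beside H2-Q4, H2-Q5 and Tap1, calls ended for H2-T22 and H2-T9 with no filter and for H2-T9 with array weights. With the replicate block, 593 genes were called higher and 88 lower. It called 15 class I entries, with calls lost for H2-Q10, H2-T10, Tap1 and Tap2 and gained for Tapbp. The deviations of same-numbered libraries from their group means correlated at -0.009, 0.018, -0.091 and -0.093. These values gave no sign of pairing by number, but they cannot settle whether the numbers pair the samples. The difference in the non-classical share, 0.31 percentage points, lay between -0.44 and 1.54 without single libraries and was 1.10 with all entries counted and 0.17 with protein-coding loci only; the difference of mean log2 values was -0.06. No called member changed sign. Genes not called that did were H2-M10.2 (0.06 with array weights, 0.02 with a pseudocount of 0.1, 0.04 with voom, -0.19 to 0.14 without single libraries), H2-M2 (-0.01 to 0.33), Cd1d1 (-0.08 to 0.03) and Mr1 (-0.08 to 0.02). Few reads limit H2-Q10, H2-Q5, H2-T-ps and H2-M10.2.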
